A study of Homo sapiens with 8 samples.

Results

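The ERBB family is the group of receptor tyrosine kinases founded by the epidermal growth factor receptor, together with the peptide growth factors that bind them. The set described here was a fixed list of 10 genes, the 4 receptors EGFR, ERBB2, ERBB3 and ERBB4 and the 6 ligand genes NRG1, HBEGF, AREG, EREG, TGFA and BTC, out of 58302 genes in the deposited count files. RNA came from RD cells, an established human cell line from rhabdomyosarcoma, a cancer with features of skeletal muscle, grown in high-glucose DMEM with serum. In the 4 shPROX1 libraries the cells carried a short hairpin RNA against PROX1, a homeobox transcription factor, and in the 4 control libraries a scrambled shRNA. All groups share this single line, the same medium and the presence of a hairpin. The series design calls the 4 libraries of each group biological replicates, and the labels say nothing of how many hairpin sequences or clones lay behind them. P-values therefore measure the spread between these libraries. The comparison addresses how ERBB transcripts differ between silenced and control cells.

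ERBB receptors work as pairs. Ligand binding to EGFR, ERBB3 or ERBB4 opens the receptor for pairing, and the paired kinases phosphorylate each other and feed the RAS-ERK and PI3K-AKT pathways. ERBB2 binds no known ligand and serves as the preferred partner, whereas ERBB3 has a weakly active kinase and signals through its partner, mainly to PI3K. TGFA and AREG bind EGFR, HBEGF, EREG and BTC bind EGFR and ERBB4, and NRG1 (neuregulin 1) binds ERBB3 and ERBB4. In skeletal muscle, neuregulin and its receptors are known for their roles in muscle spindle formation and at the nerve-muscle synapse. The ligands are made as membrane proteins and are released by ADAM metalloproteases.

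Libraries held 3747090 to 4301987 counts in shPROX1 and 4055205 to 4865161 counts in control. Levels are in CPM, a count scaled to the total of its own library, with the mean ± SD over the 4 libraries of a group. A log2 change is the shPROX1 level minus the control level on the log2 scale ± its standard error, from edgeR's quasi-likelihood test across 12392 genes that passed a filter on low counts. A gene is said to have risen or fallen where its Benjamini-Hochberg adjusted p over those genes was under 0.05. PROX1 itself stood at 7.68, 10.3, 9.07 and 8.14 CPM in the shPROX1 libraries, against 20.02, 16.3, 16.7 and 21.6 CPM in the control libraries. The groups did not overlap (p = 0.0286 in a two-sided exact permutation test, the lowest value possible with 70 arrangements), and PROX1 was at 47.6% of control (95% interval 38.6% to 58.9%), which is less silencing than the 75% the series design states. Control replicate 1 stood apart on the second principal component (at 17.99, against -9.53 to 5.40 for the other libraries), so results that rest on it are also given without it. Of 12 muscle-tumour markers, 10 were measured and MYF5 had 0 counts in all 8 libraries. The muscle markers fell in 7 cases and rose in 1, against falls in 17.9% and rises in 17.3% of all tested genes. Their summed level ran from 1418 to 1513 CPM in shPROX1 and from 1700 to 1750 CPM in control, and the part of that shift in the ERBB results was not tested. In bulk RNA, fewer cells of a type and less RNA per cell cannot be told apart.

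Of the 10 genes, 5 passed the filter on low counts: EGFR, ERBB2, ERBB3, NRG1 and HBEGF. EGFR and HBEGF rose and ERBB3 fell, each by more than 2-fold, while ERBB2 and NRG1 did not pass the test. Thus 3 of the 5 measured members were called, 2 higher and 1 lower, and the shPROX1 and control libraries did not overlap for 4 of the 5, against 32.3% of all tested genes. Over all tested genes 35.2% were called in either direction, so a count of 3 among 5 is too small to set apart from that background. The members were also chosen with earlier results of these data known, so these counts are no test of the set. Calls of at least 2-fold were less common, at 1.55% of tested genes for rises and 1.30% for falls. The median log2 change of all tested genes was -0.0066.

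The stretches that precede the start sites of 4 members are shown because 2 of these genes (EGFR and HBEGF) were measured and rose together, while the other 2 (AREG and BTC) had no reads at all. Each line holds the 250 bases before the RefSeq start of the gene (GRCh38.p14), 5′ to 3′ on the strand of the gene. The EGFR stretch lies at chr7:55018767-55019016 on the plus strand, HBEGF at chr5:140346604-140346853 on the minus strand, AREG at chr4:74444886-74445135 on the plus strand and BTC at chr4:74794524-74794773 on the minus strand. Capitals mark matches on either strand to 4 short motifs, the E-box CANNTG, the GC box GGGCGG, the AP-1 site TGANTCA and the TEAD site GGAATG.
EGFR: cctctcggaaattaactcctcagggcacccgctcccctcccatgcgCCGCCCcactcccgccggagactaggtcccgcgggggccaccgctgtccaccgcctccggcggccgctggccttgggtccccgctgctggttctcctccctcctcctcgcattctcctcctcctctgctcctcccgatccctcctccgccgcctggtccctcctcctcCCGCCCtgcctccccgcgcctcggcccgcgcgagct
HBEGF: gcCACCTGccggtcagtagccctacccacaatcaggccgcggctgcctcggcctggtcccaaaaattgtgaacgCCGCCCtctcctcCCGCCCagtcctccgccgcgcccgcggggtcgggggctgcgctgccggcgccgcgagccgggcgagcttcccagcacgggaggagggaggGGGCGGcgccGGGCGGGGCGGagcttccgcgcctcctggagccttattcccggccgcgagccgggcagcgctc
AREG: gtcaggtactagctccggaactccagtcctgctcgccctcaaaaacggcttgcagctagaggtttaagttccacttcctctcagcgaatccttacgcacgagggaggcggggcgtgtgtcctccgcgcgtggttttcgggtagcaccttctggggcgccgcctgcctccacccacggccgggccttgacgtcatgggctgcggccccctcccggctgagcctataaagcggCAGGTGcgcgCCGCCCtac
BTC: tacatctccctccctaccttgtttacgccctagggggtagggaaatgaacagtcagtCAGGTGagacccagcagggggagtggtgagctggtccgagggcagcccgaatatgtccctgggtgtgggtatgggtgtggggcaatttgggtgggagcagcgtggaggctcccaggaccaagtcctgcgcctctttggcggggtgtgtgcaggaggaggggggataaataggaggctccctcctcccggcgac

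The EGFR stretch held 2 GC boxes and the HBEGF stretch 5, of which 2 overlap, while AREG held 1 and BTC 0. A GC box was in 42.6% of all 35116 promoters of the same length. AP-1 and TEAD letters were in none of the 4 stretches, against 6.57% and 11.9% of all promoters. The E-box matched once each in HBEGF, AREG and BTC and not in EGFR, against 61.8% of all promoters. CpG pairs numbered 25 before EGFR, 33 before HBEGF, 23 before AREG and 8 before BTC, and the median over all promoters was 11. Among the members not shown, TGFA, which was below the filter, held 3 GC boxes and 27 CpG pairs, more than EGFR. The measured ERBB2 held 0 GC boxes, 1 AP-1 match and 23 CpG pairs. ERBB4 held 1 GC box and 14 CpG pairs, and EREG 0 and 11. GC boxes and CpG pairs therefore did not separate the measured EGFR, HBEGF and ERBB2 from the members below the filter. The other measured members, ERBB3 and NRG1, were not searched. These matches describe the letters of each window and were not tested for binding.

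EGFR, the receptor for most ligands of the EGF type (chromosome 7, 55019021 to 55211628, plus strand), was higher after silencing. It stood at 117, 104, 122 and 111 CPM in the shPROX1 libraries, against 40.5, 53.3, 53.0 and 56.7 CPM in the control libraries. Every shPROX1 library lay above every control library, and control replicate 1 was the lowest of the 8. EGFR averaged 113 ± 7.78 CPM in shPROX1 and 50.9 ± 7.11 CPM in control (n = 4 per group), a rise of 2.26-fold (95% interval 2.02 to 2.53, log2 change 1.18 ± 0.08, edgeR adjusted p = 5.61e-11). This was the 124th largest of 2147 called rises. Without control replicate 1 the log2 change was 1.08. The antisense gene EGFR-AS1 shares 186 exon bases with EGFR and had 0 counts.

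ERBB3, the neuregulin receptor with a weak kinase (chromosome 12, 56076799 to 56103505, plus strand), moved the other way. Its libraries held 14.7, 13.5, 17.4 and 11.2 CPM in shPROX1, against 33.2, 28.9, 29.3 and 33.5 CPM in control. The highest shPROX1 library was well below the lowest control library. ERBB3 fell to 14.2 ± 2.58 CPM in shPROX1, against 31.2 ± 2.49 CPM in control, or 45.8% of the control level (95% interval 38.5% to 54.5%, log2 change -1.13 ± 0.12, edgeR adjusted p = 1.35e-07). This was the 108th largest of 2217 called falls. ERBB3 is also a marker of Schwann cells and neural crest, and SOX10, S100B and CDH19 of that list of 11 had 0 counts in all 8 libraries, which allows up to 0.183 CPM in shPROX1 and 0.173 CPM in control. The summed level of the whole list was 294 to 314 CPM in shPROX1 and 257 to 280.4 CPM in control, and most of it was the neurotrophin receptor gene NGFR, which rose. Of the 4 measured genes of that list, ERBB3 itself among them, 1 rose and 2 fell, with a median log2 change of -0.59. That is 75.0% called, against 35.2% of all tested genes, a count too small to set apart from that background. PMP22 (log2 change -0.06 ± 0.09) did not pass. The second fall, beside ERBB3 itself, was that of the myelin basic protein gene MBP, to 5.35 ± 1.41 CPM in shPROX1, against 12.3 ± 1.51 CPM in control (log2 change -1.17 ± 0.19, edgeR adjusted p = 3.12e-05). MBP thus moved with ERBB3, and the part of such cells in the ERBB3 result was not tested.

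ERBB2, the receptor without a ligand (chromosome 17, 39687914 to 39730426, plus strand), changed little and missed the threshold. The values were 22.6, 26.2, 27.5 and 25.1 CPM in shPROX1, against 33.5, 31.1, 27.6 and 30.2 CPM in control. The groups did not overlap, but shPROX1 replicate 3 and control replicate 3 were almost equal. The log2 change of ERBB2 was -0.25 ± 0.10 with an edgeR adjusted p of 0.0522, just short of the threshold (unadjusted p = 0.0186, 95% interval -0.46 to -0.05). Without control replicate 1 the ERBB2 log2 change was -0.20. ERBB2 passed in 3 of 16 alternative analyses, over which the adjusted p ranged from 0.0334 to 0.201. ERBB2 shares 5.53% of its exon bases with MIEN1 and 1.88% with PGAP3, both on the opposite strand, and reads of these genes could not be separated if strand was ignored in the counting. ERBB4, the other neuregulin receptor, had 0 counts in shPROX1 and 4 counts in control, below the filter.

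**Figure D1:**
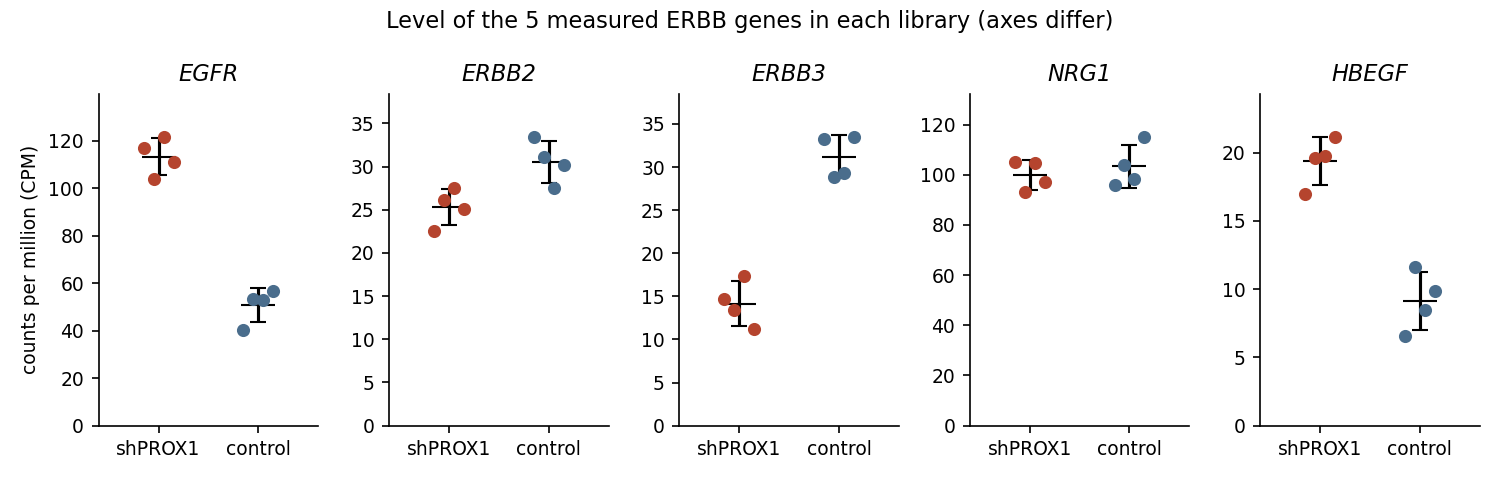
CPM of the 5 measured members in each library (points), with the mean and SD of 4 libraries per group (black), and a separate vertical axis from 0 for each gene. EGFR and HBEGF are higher and ERBB3 is lower in all 4 shPROX1 libraries, ERBB2 points are separated by a narrow gap (highest shPROX1 27.5, lowest control 27.6 CPM), and NRG1 points overlap.

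Taken per kilobase of merged exons, so that genes of different length can be set side by side, the receptor order differed between the groups. In shPROX1, EGFR stood at 9.05 ± 0.622 CPM per kilobase, ERBB2 at 2.46 ± 0.202 and ERBB3 at 1.57 ± 0.285, with no overlap between libraries of neighbouring genes. In control, EGFR stood at 4.06 ± 0.568 CPM per kilobase, ERBB3 at 3.45 ± 0.276 and ERBB2 at 2.96 ± 0.235. The control ranges of EGFR and ERBB3 overlapped, as did those of ERBB3 and ERBB2. Among all tested genes the EGFR level per kilobase was higher than 59.9% in shPROX1 and 35.8% in control. The ERBB3 level per kilobase was higher than 15.6% of tested genes in shPROX1 and 31.6% in control.

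EGFR made up 69.3% ± 1.90 of the summed level of the 3 receptors in shPROX1, against 38.7% ± 4.59 in control. ERBB3 made up 11.9% ± 1.49 in shPROX1 and 33.0% ± 2.42 in control. ERBB2 made up 18.8% ± 1.67 in shPROX1 and 28.3% ± 2.68 in control. For each receptor the shares of the 4 shPROX1 libraries lay outside the range of the 4 control libraries. The shares are parts of the same sum, so they are not independent of the EGFR and ERBB3 changes given above. The ERBB2 share was lower in shPROX1, although ERBB2 itself did not pass the test. EGFR transcripts per kilobase were 5.06 to 7.17 times those of ERBB3 in the shPROX1 libraries and 0.881 to 1.33 times in the control libraries. The sum of the 3 receptors was 13.1 ± 0.895 CPM per kilobase in shPROX1 and 10.5 ± 0.479 in control. With the length of the longest annotated coding transcript in place of merged exons, the EGFR share was 60.1% ± 2.15 in shPROX1 and 30.8% ± 4.09 in control, and ERBB2 then ranked above EGFR in control. Protein amounts and receptor pairs were not measured.

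**Figure D2:**
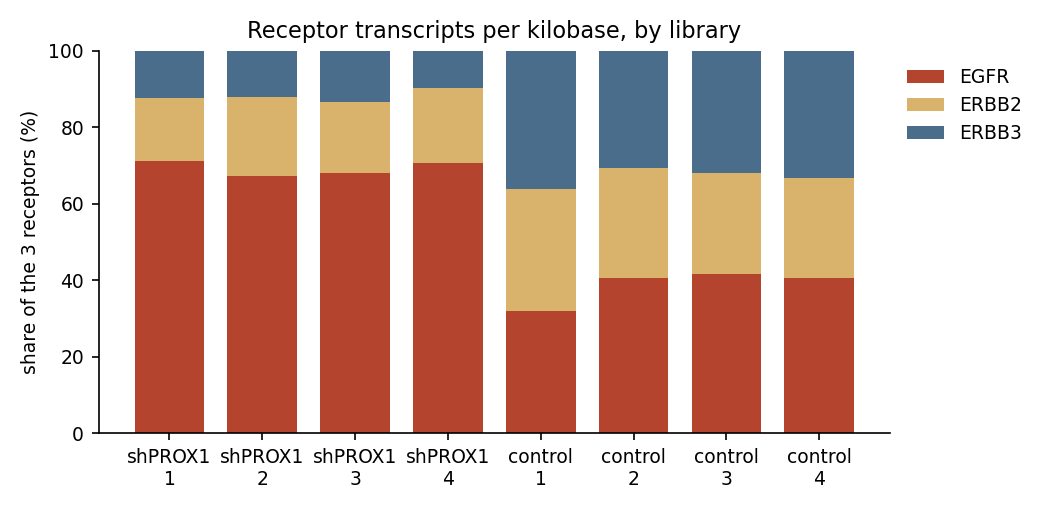
Share of EGFR, ERBB2 and ERBB3 in their summed level per kilobase of merged exons, in percent, with 1 bar per library. EGFR takes 67.3% to 71.1% in the shPROX1 libraries and 31.9% to 41.7% in the control libraries, while ERBB3 takes 9.86% to 13.4% in the shPROX1 libraries and 30.5% to 36.2% in the control libraries.

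Among the ligands, HBEGF (heparin-binding EGF-like growth factor, which binds EGFR and ERBB4) was the member that changed. It is at chromosome 5, 140332843 to 140346631, on the minus strand. HBEGF stood at 16.99, 19.6, 19.8 and 21.2 CPM in the shPROX1 libraries, against 6.60, 11.6, 8.47 and 9.87 CPM in the control libraries. All shPROX1 libraries were above all control libraries. HBEGF rose to 19.4 ± 1.73 CPM in shPROX1, against 9.13 ± 2.12 CPM in control, a 2.15-fold rise (95% interval 1.73 to 2.67, log2 change 1.11 ± 0.15, edgeR adjusted p = 4.52e-06). Control replicate 1 was the lowest library, and without it the log2 change was 0.98. HBEGF and EGFR thus rose by sizes whose 95% intervals overlap.

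NRG1, the ligand of ERBB3 and ERBB4 (chromosome 8, 31639386 to 32767959, plus strand), had the highest ligand level per kilobase in both groups. The values were 105, 93.0, 105 and 96.9 CPM in shPROX1, against 95.9, 104, 98.4 and 115 CPM in control. The groups overlapped in part, with shPROX1 replicate 2 below every control library and control replicate 4 above every shPROX1 library. Its log2 change was -0.03 ± 0.06 (edgeR adjusted p = 0.778), and the 95% interval put NRG1 between 89.6% and 108% of control. NRG1 stood at 8.82 ± 0.527 CPM per kilobase in shPROX1, within the spread of EGFR in the same libraries, and at 9.12 ± 0.753 in control, above the 4 other measured members. HBEGF stood at 6.42 ± 0.575 CPM per kilobase in shPROX1 and 3.03 ± 0.702 in control. The ratio of NRG1 to HBEGF per kilobase was 1.39 ± 0.193 in shPROX1 and 3.12 ± 0.607 in control. The gene-level counts do not separate the many isoforms of NRG1.

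The remaining ligands of the set were at or near 0. AREG (amphiregulin) and BTC (betacellulin) had 0 counts in each of the 8 libraries, which allows up to 0.183 CPM over the shPROX1 libraries and 0.173 CPM over the control libraries. EREG (epiregulin) had 1 count in shPROX1 and 0 in control. TGFA had 4 counts in each group, or 0.243 CPM (95% exact Poisson interval 0.0663 to 0.623) in shPROX1 and 0.231 CPM (0.063 to 0.592) in control. Such limits cover counting error only, and differences of these 4 ligands and of ERBB4 were not detectable at this depth. Of the 5 ERBB ligand genes outside the set, EGF was measured at 8.76 ± 0.932 CPM in shPROX1 and 9.24 ± 1.04 CPM in control, and it did not pass the test (log2 change -0.06 ± 0.16, 95% interval -0.40 to 0.27, edgeR adjusted p = 0.806). NRG2 had 27 counts in shPROX1 and 17 in control, and EPGN, NRG3 and NRG4 had at most 7 counts in a group.

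**Figure D3:**
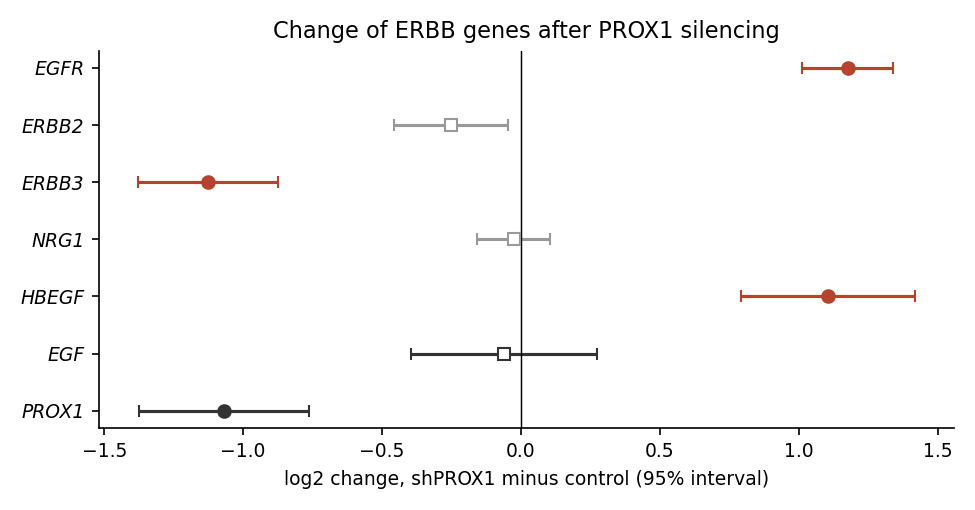
Log2 change (shPROX1 minus control) with its unadjusted 95% interval from the edgeR fit for the 5 measured members, the ligand EGF and the silenced gene PROX1. Filled circles passed the adjusted threshold (EGFR, ERBB3, HBEGF and PROX1) and open squares did not (ERBB2, NRG1 and EGF).

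Genes with a pattern close to each member were found by the distance between centred log2 CPM over the 8 libraries, among 10528 other protein-coding genes of at least 5 CPM. EGFR was nearest to NIBAN1 (distance 0.194 log2 units, log2 change 1.08 ± 0.08), then FXYD5 and KCNMA1. ERBB3 was nearest to C14orf132 (0.315), then HIC1 and TNK2. HBEGF was nearest to KCNH1 (0.425), then MAP3K7CL and OGFRL1. ERBB2 was nearest to WRAP73, CRIP2 and ANKRD13D, and NRG1 to TNKS, TIAM1 and ARHGAP42. These distances describe the 8 libraries only and carry no test.

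The nearest tested gene on each side of a called member, chosen after the members' values were seen, did not share the size of its change. Beside EGFR, SEC61G (259 kb away, log2 change 0.32 ± 0.07) rose by less and LANCL2 (154 kb, -0.12 ± 0.08) did not pass. The next tested gene beyond LANCL2 was VOPP1 (224 kb from EGFR), which rose by 0.69 ± 0.06 on the log2 scale. Beside ERBB3, the ribosomal protein gene RPS26 (0.28 ± 0.05) and PA2G4 (0.814 kb away, 0.12 ± 0.05), which encodes a protein known to bind ERBB3, both rose. Beside HBEGF, PFDN1 (0.26 ± 0.07) rose and ANKHD1 (0.16 ± 0.31) did not pass.

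Genes for release of the ligands were called about as often as tested genes in general. Of 14 listed shedding and trafficking genes, 13 were measured, 3 rose, 2 fell and 8 did not pass, with a median log2 change of 0.06. The share called was 38.5%, near the 35.2% of all tested genes. ADAM17, the main protease for TGFA, AREG and HBEGF, fell to 91.5 ± 5.38 CPM in shPROX1, against 120.2 ± 3.62 CPM in control (log2 change -0.37 ± 0.06). It shares 12.3% of its exon bases with IAH1 on the opposite strand. ADAM9 rose to 539 ± 28.8 CPM in shPROX1, against 331 ± 11.4 CPM in control, and ADAM19, which can cleave neuregulin, rose to 122 ± 5.35 CPM, against 84.5 ± 6.82 CPM in control. CNIH1, a human relative of the Drosophila cargo receptor cornichon, rose by 0.26 ± 0.06 on the log2 scale, and NRDC, which enhances HBEGF shedding, fell by 0.16 ± 0.05. ADAM12 was at 171 ± 7.59 CPM in shPROX1 and 172 ± 12.0 CPM in control and did not pass.

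Among genes that restrain or degrade the receptors, calls were again about as common as in the background. Of 25 listed, 24 were measured, 4 rose, 4 fell and 16 did not pass, with a median log2 change of 0.04. That is 33.3% called, beside 35.2% of all tested genes. The largest fall was that of TNK2, a kinase that binds activated EGFR, with 16.8 ± 1.99 CPM in shPROX1 and 33.0 ± 1.75 CPM in control (log2 change -0.95 ± 0.11). RNF41, the ubiquitin ligase of ERBB3, fell as well (-0.52 ± 0.07), so that ERBB3 and the gene for its ligase were lower in the same libraries. LRIG1 (-0.26 ± 0.08) and SNX1 (-0.25 ± 0.08) were the other falls. The ubiquitin ligase gene NEDD4 (0.74 ± 0.07), SOCS5, which promotes EGFR degradation (0.61 ± 0.09), the endosomal sorting gene HGS (0.41 ± 0.06) and ERRFI1, a feedback inhibitor of the EGFR kinase (0.24 ± 0.05), rose. PTPN1 (0.12 ± 0.05) did not pass.

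Receptor partners and coreceptors included larger changes. Of 15 listed, 11 were measured, 6 rose, 1 fell and 4 did not pass, with a median log2 change of 0.17. Calls made up 63.6% of these 11 genes and 35.2% of all tested genes. This list, like the other lists here, was chosen with earlier results of these data known. A share above the background is therefore no test of the role. NRP1 was at 6.64 ± 0.635 CPM in shPROX1 and 1.25 ± 0.732 CPM in control. The caveolar coat gene CAV1 rose to 225 ± 13.5 CPM in shPROX1, against 46.8 ± 7.49 CPM in control. SDC4, a heparan sulphate proteoglycan of the class that binds HBEGF, rose to 139 ± 4.55 CPM in shPROX1, against 39.4 ± 3.27 CPM in control. ITGA6 (log2 change 0.68 ± 0.05), CD44 (0.52 ± 0.07) and the chaperone HSP90AA1 (0.17 ± 0.04) rose too. ERBIN, which binds ERBB2, fell (-0.22 ± 0.06), and HSP90AB1 (0.08 ± 0.03) did not pass.

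Among adaptors and signal relays more genes fell than rose. Of 48 listed, 45 were measured, 4 rose, 15 fell and 26 did not pass, with a median log2 change of -0.07. The share called was 42.2%, against 35.2% of all tested genes, of which 17.9% fell and 17.3% rose. Because this list was chosen with earlier results of these data known, its larger number of falls is no test of these roles. The adaptor SHC2 fell to 6.06 ± 0.975 CPM in shPROX1, against 13.9 ± 3.91 CPM in control. The PI3K subunit PIK3R3 (-0.62 ± 0.08), which overlaps the exons of an annotated gene with 0 counts, and the ERK gene MAPK3 (-0.56 ± 0.16) fell. PIK3CD, another PI3K subunit, rose from a low level, with 4.63 ± 0.575 CPM in shPROX1 and 1.13 ± 0.509 CPM in control. Other rises included SHC1 (0.23 ± 0.05) and MAP2K1 (0.31 ± 0.04). The abundant phosphatase PTPN11 (0.08 ± 0.05) did not pass. MAP2K2 (-0.23 ± 0.05), the paralogue of MAP2K1, fell, and this pair was singled out after its values were seen.

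Response genes of growth-factor signalling went both ways. Of 29 listed, 27 were measured, 10 rose, 5 fell and 12 did not pass, with a median log2 change of 0.17. Of the measured genes 55.6% were called, against 35.2% over all tested genes. Because the list was chosen with earlier results of these data known, that difference is no test of growth-factor response. The urokinase receptor gene PLAUR rose to 102 ± 4.76 CPM in shPROX1, against 24.1 ± 2.85 CPM in control. DUSP5, a nuclear ERK phosphatase (log2 change 1.77 ± 0.10), and the AP-1 genes FOSL1 (1.47 ± 0.20) and JUN (1.11 ± 0.07) rose. The feedback genes DUSP6 (-0.10 ± 0.04) and SPRY2 (-0.17 ± 0.05) fell by small amounts, while the other SPRY genes and the SPRED genes listed did not pass. ETV5 (-0.24 ± 0.08), MYC (-0.38 ± 0.05) and JUNB (-0.71 ± 0.11) fell too. PHLDA1 (-0.09 ± 0.05) did not pass. JUNB shares 14.2% of its exon bases with HOOK2 on the opposite strand.

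**Figure D4:**
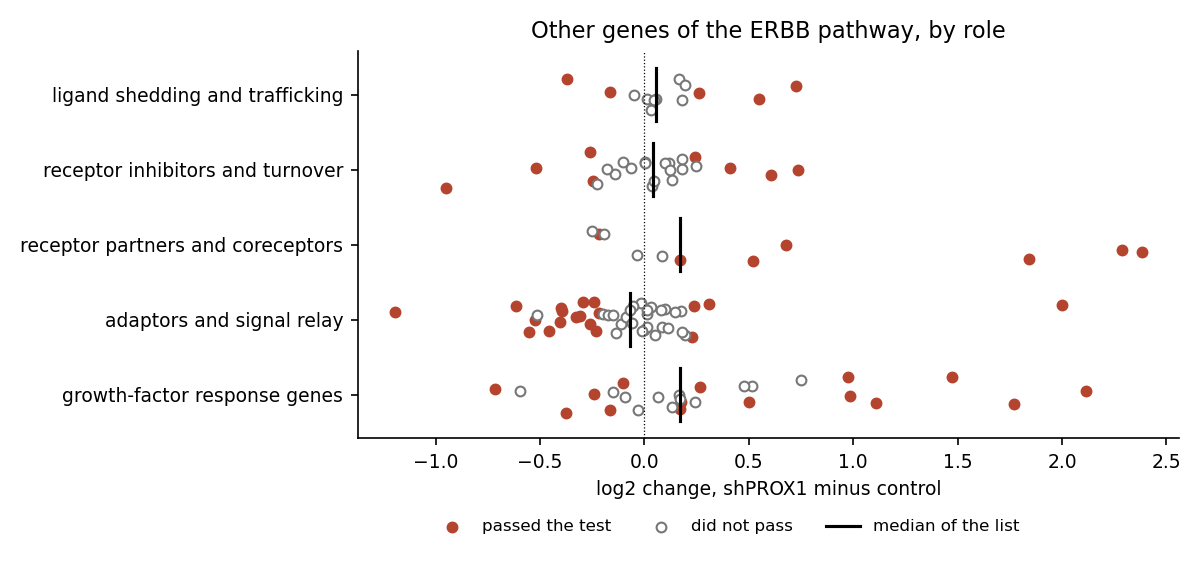
Log2 change (shPROX1 minus control) of each measured gene in 5 lists of the ERBB pathway, with filled points for genes that passed the adjusted threshold, open points for those that did not, and a bar at the median of each list (vertical scatter within a list has no meaning). The medians lie between -0.07 and 0.17, and called genes lie on both sides of 0 in each list.

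Among markers of other cells, 9 of 12 epithelial, 7 of 11 Schwann cell and neural crest, and 9 of 10 endothelial and blood genes were below the filter on low counts, while KRT18, NGFR and TEK were abundant. Of the epithelial markers, KRT5, KRT14, CLDN7 and ESRP1 had 0 counts in all 8 libraries, and EPCAM and CDH1 had at most 1 count in a group. The epithelial sum was 264 to 291 CPM in shPROX1 and 182 to 214 CPM in control, nearly all of it from KRT18, which rose (log2 change 0.47 ± 0.06), with a rise of CLDN4 (0.76 ± 0.22). The endothelial and blood list summed to 42.1 to 46.7 CPM in shPROX1 and 39.7 to 53.7 CPM in control, nearly all from TEK (41.9 ± 2.04 CPM in shPROX1 and 44.6 ± 5.74 CPM in control, not passing the test), and CDH5, CD3E, HBA1 and HBB had 0 counts.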

How the data were processed

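RNA-seq was run on 8 libraries of RD cells, 4 shPROX1 and 4 control, from total RNA with a directional kit, per the labels. The authors deposited 1 file per library, which lists unnormalized counts of reads per gene. Tools listed in the submitters' processing notes are HISAT2, HTSeq, DESeq2 and FastQC, with GRCh38 (hg38) as the genome. No version, annotation or strand setting of the counting is given in the sources used here.

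GENCODE 29 held 58039 of the 58302 gene identifiers and gave symbols, coordinates (1-based, GRCh38) and merged exon lengths. The test was the quasi-likelihood F test of edgeR 4.0.16 (R 4.3.3) after filterByExpr and TMM scaling, with a term for group alone and Benjamini-Hochberg adjusted p-values. Standard errors came from the F statistic. The model was tested on simulated data. The chi-square per degree of freedom between libraries of a group was 1.19 to 2.16 in shPROX1 and 2.39 to 6.34 in control. It gave no sign of a library deposited more than once. The lowest shPROX1 value is little above counting error alone, so those libraries differed little, and the reason was not tested.

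The members and gene lists were chosen with earlier results of these data known. Genes named beside the members were PROX1, the most abundant uncalled gene of each list with up to 4 of its called genes (the largest changes, from 1 CPM upwards), and the 3 genes nearest in pattern to each member of at least 5 CPM (pseudocount 0.5 CPM). Groups of at most 5 called genes are named, except that some listed genes are not reported here. Same-numbered libraries did not deviate together, so no pairing was assumed. Alternatives were RLE and upper-quartile factors, other filters, DESeq2 1.42.0, limma voom 3.58.1, a replicate block, each library left out, a threshold of 0.01 and coding transcript length. RefSeq promoters were searched for 8 members. ERBB3 had no entry, and NRG1 was left out of the search by choice.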

Additional observations from a re-analysis of the deposited data

Results flagged for a closer look

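EREG in shPROX1 replicate 2 stood at 0.245 CPM while the other 3 shPROX1 libraries were at 0, which sets this library apart from its group. The value is 1 read, under the limit of 3 counts that a count of 0 allows. A single read in 1 library and none in the other 3 always gives such a gap, so no difference between these libraries is read from it.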

How the results depend on the processing

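EGFR, HBEGF, ERBB3 and PROX1 kept their direction and passed the threshold in all 16 alternative analyses, with log2 changes of 1.08 to 1.23, 0.98 to 1.23, -1.23 to -1.03 and -1.15 to -0.99. ERBB2 passed with upper-quartile factors (log2 change -0.26, adjusted p = 0.0454). It also passed without control replicate 3 (adjusted p = 0.0334) or shPROX1 replicate 3 (adjusted p = 0.0463). Leaving out each library gave ERBB2 log2 changes of -0.30 to -0.20 and NRG1 log2 changes of -0.0599 to 0.0289. The direction of NRG1 turned without shPROX1 replicate 2 (0.0061) and without control replicate 4 (0.0289), and it did not pass in any alternative. The cause was not tested. All genes called numbered 2986 to 4426 across the alternatives, and no list count moved by more than 1.5 times.

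With the replicate number as a block, 4187 genes were called in place of 4364, and no call of a member changed (ERBB2 adjusted p = 0.0781). Correlations of same-numbered libraries were -0.07 to 0.06, so the numbers were not taken as pairs. With coding transcript length, NRG1 ranked first and EGFR second in shPROX1, and the control order was NRG1, ERBB2, ERBB3, EGFR and HBEGF. Depth limits ERBB4, AREG, EREG, TGFA and BTC, which were below the filter.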
